A study of Mus musculus with 8 samples.

Results

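A group of 4 genes of the calcium/calmodulin-dependent protein kinase II (CaM kinase II) system were followed in fibroblasts given retinoic acid (RA): the kinase subunits Camk2b, Camk2d and Camk2g, and the inhibitor Camk2n1. They were picked by symbol from the 22200 genes of the table, with their values in these libraries already known, so their levels are given as a description and without a test. All 4 of 4 were found, and all 4 had a mean of at least 10 normalised reads and entered the fit. The cells were a line of immortalised mouse embryonic fibroblasts on the C57BL/6 background, and the genotype label of every library, the untreated ones included, is TAF4-/-. The titles carry the tag cl1, which is close to the name the study uses for its TAF4-expressing line, so the genotype is given as labelled. The TAF4 protein belongs to TFIID, a factor used in transcription by RNA polymerase II. The libraries comprised 3 from cells without treatment (labelled 12 h), 3 from cells exposed to RA for 12 h and 2 from cells exposed to RA for 72 h. An untreated library at 72 h was not analysed here, so that RA and time in culture cannot be told apart at 72 h. The labels name no separate cultures, and replicate spread may therefore be partly technical.

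CaM kinase II is a serine/threonine kinase built as a large ring of subunits that calcium-loaded calmodulin switches on. Once active, a subunit phosphorylates its neighbour on a threonine beside the calmodulin-binding segment, and the enzyme then stays partly active after calcium falls. Camk2a and Camk2b are the subunits best known from neurons, whereas Camk2d and Camk2g are expressed in many tissues. Camk2n1 and its relative Camk2n2 encode small proteins that bind the active kinase and block it.

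The stretch around that threonine is shown for the kinase subunits because the genes are near relatives and their reads are told apart only by base differences such as those found here. Each line gives codons 277 to 310 of the longest coding sequence annotated for the gene, 5′ to 3′ on the coding strand, with the codon of threonine 287 in capitals. All coordinates of genes and coding sequences are on mm9. For Camk2b the stretch lies in exons 11 and 12 of 24 (chr11:5888120-5889032, minus strand), for Camk2d in exons 11 and 12 of 21 (chr3:126500629-126501182, plus strand) and for Camk2g in exons 11 and 12 of 21 (chr14:21579382-21579693, minus strand), the intron between the exons being left out.
Camk2b: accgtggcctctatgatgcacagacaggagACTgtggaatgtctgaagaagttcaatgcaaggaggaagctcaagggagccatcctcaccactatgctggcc
Camk2d: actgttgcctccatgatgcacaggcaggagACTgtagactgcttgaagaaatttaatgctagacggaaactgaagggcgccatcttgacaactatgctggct
Camk2g: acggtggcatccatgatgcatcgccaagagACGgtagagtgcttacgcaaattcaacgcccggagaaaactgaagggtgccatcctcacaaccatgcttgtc

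Of the 102 bases, 82 were the same in Camk2b and Camk2d, 74 in Camk2b and Camk2g and 75 in Camk2d and Camk2g. The encoded stretches were closer than the bases, with 33, 32 and 31 of 34 residues the same in these pairs. The coding sequences used encode 666 residues for Camk2b, 533 for Camk2d and 529 for Camk2g.

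The inhibitors are shown whole, since Camk2n1 is the gene of the group that differed most between treated and untreated cells and Camk2n2 is the gene it could be confused with. The coding sequence of Camk2n1 runs over exons 1 and 2 of 2 (chr4:138011101-138012703, plus strand) and encodes 78 residues, and that of Camk2n2 runs over exons 1 and 2 of 2 (chr16:20620246-20621267, minus strand) and encodes 79 residues. Capitals mark the stretch of 27 codons over which the encoded proteins differ at 1 residue.
Camk2n1: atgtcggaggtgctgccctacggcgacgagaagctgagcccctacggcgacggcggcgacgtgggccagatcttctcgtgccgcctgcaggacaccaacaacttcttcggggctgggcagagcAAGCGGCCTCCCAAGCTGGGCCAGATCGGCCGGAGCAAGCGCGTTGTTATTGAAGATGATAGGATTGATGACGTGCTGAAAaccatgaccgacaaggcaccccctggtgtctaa
Camk2n2: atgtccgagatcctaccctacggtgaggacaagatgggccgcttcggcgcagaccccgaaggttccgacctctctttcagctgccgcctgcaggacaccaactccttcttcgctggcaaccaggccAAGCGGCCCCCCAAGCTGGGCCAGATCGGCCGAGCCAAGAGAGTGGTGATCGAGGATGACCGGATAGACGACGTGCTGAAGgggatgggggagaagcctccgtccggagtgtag

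Within the capitals, 15 of 81 bases differ between the inhibitor genes. The values that follow are normalised reads summed over each gene and do not show where in the gene the reads lie.

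The RA response itself was present in the treated libraries. Cyp26b1, which encodes an enzyme that degrades RA, stood at 59.0 ± 16.8 normalised reads in untreated cells (SD, n = 3), 3746 ± 759 at 12 h (n = 3) and 5391 ± 1293 at 72 h (n = 2). Rarb, the RA receptor gene that RA itself raises, rose by 1.76 ± 0.22 at 12 h and by 2.31 ± 0.24 at 72 h on the log2 scale (± SE, limma with Benjamini-Hochberg adjusted p of 0.00021 and 3.44e-05). The targeted gene, listed as Taf4a, was not low in any library (984 to 1449), and reads outside the deleted segment would not show the deletion. Where its reads lie is not known, so these values cannot tell the labelled genotype from a TAF4-expressing line. The fibroblast markers Vim, Col1a1, Col1a2 and Fn1 were among the abundant genes, although Thy1 stood at 1 to 3.5. The 10 fibroblast markers summed to 237320 to 258041 in untreated cells, 239015 to 249459 at 12 h and 217422 to 223277 at 72 h, so that the sum was lower at 72 h. Col3a1 among them was read at 19989 to 22110, 15625 to 19652 and 7665 to 8071. The markers did not move together. Mean levels of Col1a1, Col1a2, Col3a1, Vim, Fn1 and S100a4 were lower at 72 h than in untreated cells. Those of Pdgfra (206 untreated, 408 at 72 h), Pdgfrb (806.5 and 1143), Twist1 and Thy1 were higher. Their part in the results at 72 h was not tested. Deviations of the libraries from their group means had one main axis that held 50.1% of the within-group variance. Such deviations cancel within each group, so every group has libraries on both sides of the axis by construction. Side 1 of it held the untreated libraries 1 and 2, the 12 h library 3 and the 72 h library 2, and side 2 held the other libraries. In side 1, genes with a long genomic span lay low for their group, and in side 2 they lay high, but the strength differed. Spearman's rho of deviation with span was only -0.07 in untreated library 1. It was -0.28 to -0.22 in the rest of side 1 and 0.14 to 0.30 in side 2. The comparisons are therefore also given within each side.

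Camk2n1 (ENSMUSG00000046447, chr4:138010229-138016038, plus strand) was the gene of the 4 with the largest difference between treated and untreated cells. It was read at 49.5, 36.5 and 40.8 in the untreated libraries, at 163, 122 and 104 after 12 h of RA, and at 216 and 182 after 72 h. Every RA library lay above every untreated library, and both libraries of 72 h lay above the 3 of 12 h. The group means were 42.2 ± 6.63 (SD, n = 3), 129 ± 30.5 (n = 3) and 199 ± 24.5 (n = 2), which puts the 12 h mean at 3.06 times and the 72 h mean at 4.71 times the untreated mean. On the log2(value + 1) scale the difference from untreated was 1.58 ± 0.19 at 12 h and 2.22 ± 0.21 at 72 h (± SE of the fit). Among the 12673 genes fitted, these differences ranked 51 and 35 from the top. The step from 12 h to 72 h was 0.64 ± 0.21.

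Every RA library lay above every untreated one for Camk2n1, so its direction within each side of the shared axis was fixed beforehand. Only the size of the difference is described, from 1 or 2 libraries per group on a side. Within side 1 Camk2n1 was 1.27 higher at 12 h and 2.07 higher at 72 h on the log2 scale, and within side 2 it was 1.76 and 2.38 higher. Leaving out any 1 library gave 1.40 to 1.72 at 12 h and 2.09 to 2.34 at 72 h.

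**Figure D1:**
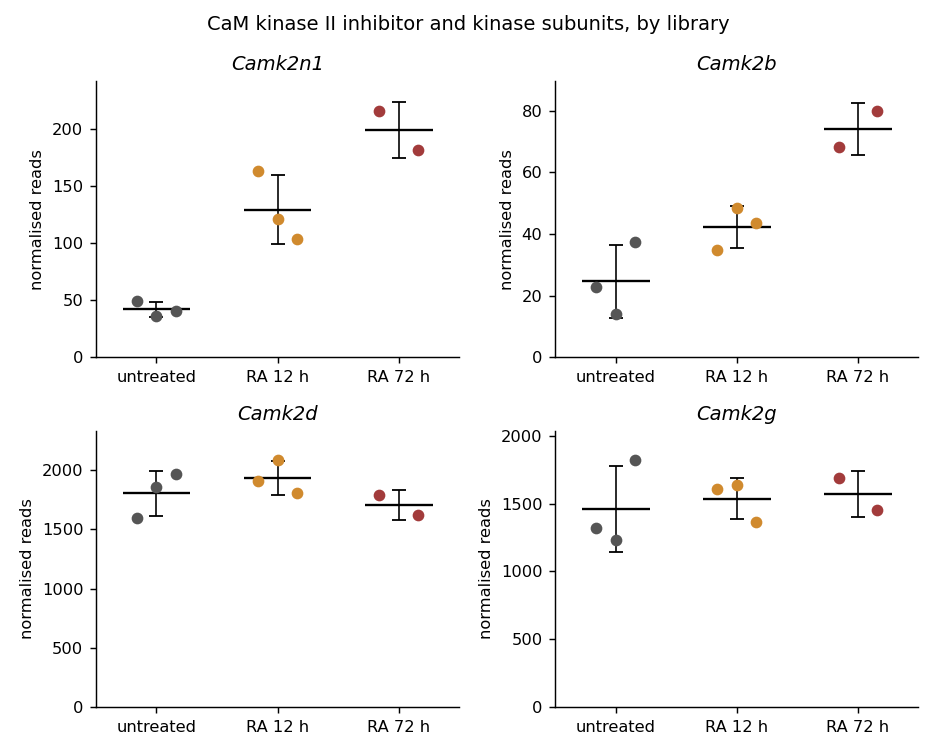
Normalised reads (y axes, each from 0) of Camk2n1, Camk2b, Camk2d and Camk2g in each library of the untreated, RA 12 h and RA 72 h groups (points), with the group mean (horizontal line) and SD (error bar; n = 3, 3 and 2). Camk2n1 separates all 3 groups (means 42.2, 129 and 199), Camk2b overlaps between untreated and 12 h (37.4 against 34.8), and Camk2d and Camk2g stay between 1233 and 2084 throughout.

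Camk2b (ENSMUSG00000057897, chr11:5869647-5966365, minus strand) was the kinase subunit with a large difference, and it started from a low level. Its values were 22.8, 13.9 and 37.4 in the untreated libraries, 34.8, 48.5 and 43.5 at 12 h, and 68.1 and 80.0 at 72 h. At 12 h the lowest RA library lay below untreated replicate 3, so these groups overlapped. At 72 h both libraries lay above all 6 others. The group means were 24.7 ± 11.9 (SD, n = 3), 42.2 ± 6.96 (n = 3) and 74.1 ± 8.40 (n = 2), and the SD of the untreated group was 48.1% of its mean. The 72 h mean was 3.0 times the untreated mean, and the 12 h mean was 1.71 times it. On the log2 scale the difference from untreated was 0.85 ± 0.30 at 12 h (rank 260) and 1.65 ± 0.33 at 72 h (rank 87), and the step from 12 h to 72 h was 0.80 ± 0.33.

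The sides of the shared axis gave different values for Camk2b, from 1 or 2 libraries per group on a side. Camk2b, whose gene spans 96719 bases, was itself among the genes that set the axis, and the part of its span was not tested. Both libraries of 72 h lay above all others, so the directions at 72 h within each side were fixed beforehand. Within side 1 the log2 difference was 1.24 at 12 h and 2.11 at 72 h, whereas within side 2 it was 0.13 and 0.85. The step from 12 h to 72 h was 0.86 within side 1 and 0.72 within side 2. Untreated replicate 3, the only untreated library of side 2, also held the highest untreated value. Leaving out any 1 library gave 0.51 to 1.19 at 12 h and 1.31 to 1.99 at 72 h, with the lowest values without untreated replicate 2 and the highest without untreated replicate 3.

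Where reads lie within the gene is not known, and reads scattered over a long gene could be part of a low value. As an estimate of such a background, assumed from other genes, the 25th percentile of reads per Mb over genes with a span of at least 100000 bases was taken in each library and multiplied by the span of the gene. For Camk2b it came to 8.71 to 15.5 reads in the 8 libraries. This was 45.6, 62.8 and 39.2% of the value in the untreated libraries, 41.7, 29.9 and 25.7% at 12 h, and 22.7 and 15.1% at 72 h. The ranges of the estimate overlapped between the groups, so its larger share in untreated libraries follows mostly from their lower Camk2b values. Taking a similar amount off lower values also enlarges a log2 difference, so the subtraction gives no separate support for it. After subtraction of the estimate the log2 difference of Camk2b was 1.22 at 12 h and 2.28 at 72 h, and with the 5th percentile in its place, a setting chosen after seeing the data, it was 0.96 and 1.86. For Camk2n1, with a span of 5810 bases, the estimate was at most 2.16% of the value in any library.

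**Figure D2:**
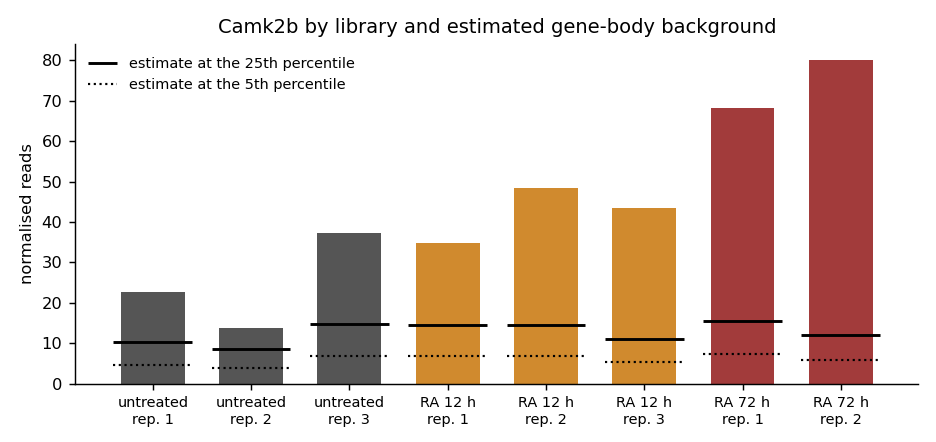
Camk2b in each of the 8 libraries (bars, normalised reads, y axis from 0; grey untreated, orange RA 12 h, red RA 72 h), with the estimated gene-body background at the 25th percentile (solid line) and at the 5th percentile (dotted line). The solid line reaches 62.8% of the bar in untreated replicate 2 and 15.1% in RA 72 h replicate 2.

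The sum of neuronal marker genes was lower in the RA libraries. Of the 8 genes listed, 6 were in the table, and their sum was 337 to 436 in untreated cells, 245 to 276 at 12 h and 185 to 190 at 72 h, mostly from Syn1 and Stmn2. Of the other listed neuronal genes, Snap25, Nefl and Elavl3 stayed at 1 to 10 in every library and Tubb3 at 12.9 to 33.8. Elavl3 had a higher mean at 72 h (7.44) than in untreated cells (4.96), while each of the other neuronal genes had a lower one. The part of these genes in the results was not tested. The 6 muscle genes summed to 25.4 to 56.8, with overlapping groups, as did the epithelial (19.2 to 36.2) and blood (28.6 to 56.5) lists. The 4 endothelial genes summed to 38.4 to 56.4 in untreated cells, 46.9 to 70.1 at 12 h and 59.2 to 63.8 at 72 h, so that their sum was higher at 72 h, and their part in the results was not tested. In bulk RNA, more cells with a transcript and more transcript per cell cannot be told apart.

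Camk2d (ENSMUSG00000053819, chr3:126299220-126547972, plus strand) was the most abundant subunit by reads. It was read at 1597, 1860 and 1966 in untreated cells, 1913, 2084 and 1807 at 12 h, and 1793 and 1618 at 72 h. Untreated libraries overlapped with both RA groups, while the 2 libraries of 72 h lay below the 3 of 12 h. The means were 1807 ± 190 (SD, n = 3), 1935 ± 140 (n = 3) and 1706 ± 124 (n = 2). The log2 differences were 0.10 ± 0.11 at 12 h, -0.08 ± 0.12 at 72 h and -0.18 ± 0.12 from 12 h to 72 h (± SE).

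Camk2g (ENSMUSG00000021820, chr14:21554097-21613310, minus strand) stood close to Camk2d. Its values were 1324, 1233 and 1821 in untreated cells, 1608, 1641 and 1364 at 12 h, and 1689 and 1451 at 72 h, with all groups overlapping. The means were 1459 ± 316 (SD, n = 3), 1538 ± 151 (n = 3) and 1570 ± 168 (n = 2). The log2 differences were 0.09 ± 0.14 at 12 h, 0.12 ± 0.16 at 72 h and 0.03 ± 0.16 from 12 h to 72 h. Within side 2 they turned to -0.16 at 12 h and -0.11 at 72 h.

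**Figure D3:**
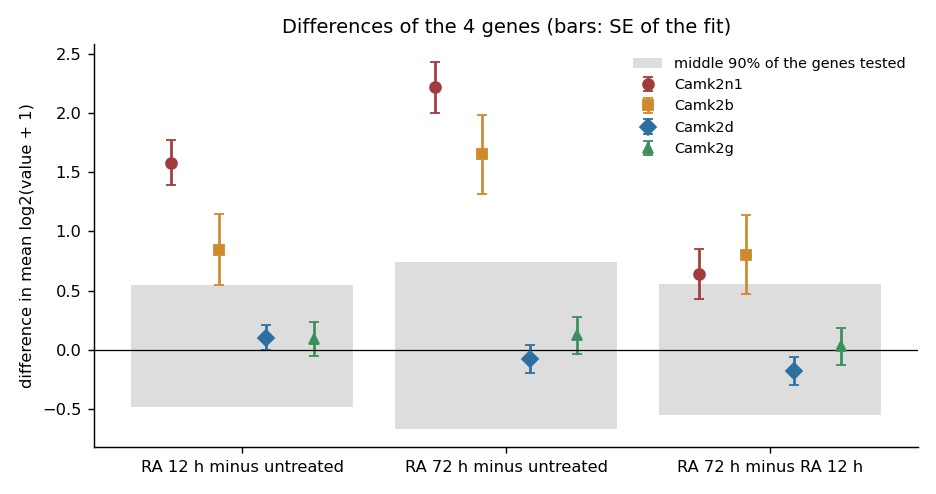
Difference in mean log2(value + 1) (y axis) of Camk2n1, Camk2b, Camk2d and Camk2g (points; bars are the SE of the fit) in the 3 comparisons (x axis), over a grey band that holds the middle 90% of the 12673 genes tested. Camk2n1 (1.58 and 2.22) and Camk2b (0.85 and 1.65) lie above the band against untreated cells, while Camk2d and Camk2g lie within it in each comparison.

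Calls required an adjusted p below 0.05 in limma together with a change of at least 2-fold. At 12 h, 1 of the 4 genes (Camk2n1) was called higher, against 1.11% of all genes tested that were called higher. At 72 h, 2 of the 4 (Camk2n1 and Camk2b) were called higher, against 2.15% of all genes. The genes were chosen with these differences known, so nothing is read from these counts. All RA libraries lay above all untreated ones in 1 of the 4 genes at 12 h and in 2 at 72 h, as they did in 9.42% and 17.2% of all genes. From 12 h to 72 h, 2 of the 4 genes had all 72 h libraries above all 12 h libraries (18.1% of all genes did) and Camk2d had them all below (19.2% did). The call of Camk2b at 72 h was lost without RA 72 h replicate 2 (1.54), and without untreated replicate 3 it was also called at 12 h.

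Levels were set against each other per kb of the longest annotated transcript, a scale that presumes reads from along the transcript. Camk2d had 412 ± 43.3 and Camk2g 394 ± 85.4 reads per kb in untreated cells (SD, n = 3), and their libraries overlapped in every group. Camk2n1 followed with 9.51 ± 1.49 and Camk2b with 5.98 ± 2.88, and these also overlapped (8.21 at the lowest for Camk2n1 and 9.06 at the highest for Camk2b). At 12 h Camk2n1 had 29.1 ± 6.86 and Camk2b 10.2 ± 1.69 reads per kb without overlap. At 72 h these were 44.8 ± 5.51 and 18.0 ± 2.04 (n = 2), again without overlap. The order of the 4 genes was thus Camk2d and Camk2g well above Camk2n1 and Camk2b in untreated cells, with neither pair separated beyond its spread as deposited. After subtraction of the background estimate, however, Camk2b was at most 5.51 and Camk2n1 at least 8.10 reads per kb in untreated cells, without overlap.

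Ratios were also taken within each library; they do not depend on a scaling by 1 factor, although quantile normalisation is not of that kind. Per 100 reads of the 3 kinase subunits there were 1.68, 1.17 and 1.07 reads of Camk2n1 in the untreated libraries, 4.59, 3.22 and 3.23 at 12 h, and 6.10 and 5.77 at 72 h. The ratio of Camk2n1 to kinase reads was thus separate in all 3 groups, with means of 1.31 ± 0.33, 3.68 ± 0.79 and 5.94 ± 0.23. This does not hold for the inhibitors together, a sum taken after the values were seen. Camk2n1 and the more abundant Camk2n2 came to 15.1, 10.9 and 11.9 reads per 100 kinase reads in untreated cells, 11.6, 11.2 and 12.8 at 12 h, and 19.6 and 18.8 at 72 h, so that untreated and 12 h libraries overlapped and those of 72 h lay above. These ratios are not scaled by length, and the longest annotated transcript of Camk2n2 (1291 bases) is shorter than that of Camk2n1 (4444). Per kb, if reads come from along the transcript, Camk2n2 had means of 288 in untreated cells, 222 at 12 h and 345 at 72 h. The summed kinase subunits themselves came to 3291 ± 469, 3515 ± 282 and 3350 ± 283 reads, with overlapping ranges.

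Camk2b took 0.773, 0.447 and 0.977% of the reads of the 3 subunits in untreated cells, 0.977, 1.29 and 1.35% at 12 h, and 1.92 and 2.54% at 72 h. The highest untreated library and the lowest of 12 h met at 0.977%, and the 72 h libraries stood apart. After subtraction of the background estimate the means were 0.400, 0.839 and 1.85%. Even at 72 h, Camk2d and Camk2g together made up nearly all of the subunit reads. The share of Camk2d was 55.2 ± 4.30% in untreated cells, 55.1 ± 1.21% at 12 h and 50.9 ± 0.61% at 72 h, and the ratio of Camk2d to Camk2g reads was 1.19 to 1.32 at 12 h and 1.06 to 1.11 at 72 h, within the untreated range of 1.08 to 1.51 but for the lower library of 72 h.

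**Figure D4:**
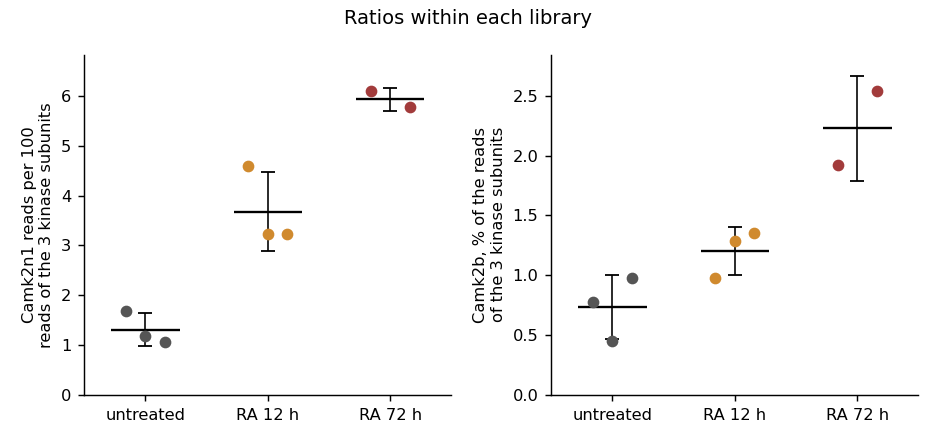
Ratios within each library (points) by group, with group mean (line) and SD (bar; n = 3, 3 and 2), both y axes from 0. Left, reads of Camk2n1 per 100 reads of the kinase subunits Camk2b, Camk2d and Camk2g (means 1.31, 3.68 and 5.94). Right, Camk2b as a percentage of the reads of these subunits (means 0.732, 1.21 and 2.23).

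The relatives of these genes are Camk2a and Camk2n2. Camk2a, named after its values were seen, encodes the remaining kinase subunit and was low, at 24.1, 24.2 and 26.9 in untreated cells, 19.8, 24.2 and 24.0 at 12 h, and 11.5 and 14.1 at 72 h. Its 72 h libraries lay below all others, but it was not called in any comparison. Camk2n2, named in the same way, was read at 396, 303 and 416 in untreated cells, 248, 303 and 309 at 12 h, and 479 and 411 at 72 h. It was not called either, and its log2 differences from untreated were -0.37 ± 0.14 at 12 h and 0.27 ± 0.16 at 72 h. From 12 h to 72 h its difference was 0.64 ± 0.16 (adjusted p 0.0325 in limma, groups without overlap), short of the 2-fold minimum. Camk2n2 thus stood above Camk2n1 in every library.

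The genes around the kinase were taken from a list of 95 symbols in 6 groups, of which 93 were in the table and 85 were tested. At 12 h, 1 gene of the list was called higher and 1 lower (2.35% of the list, against 1.42% of all genes called in either direction), and the median log2 difference was -0.01 against -0.02 over all genes. At 72 h, 2 were called higher and 2 lower (4.71% against 3.67%), with a median of 0.01 against -0.02. From 12 h to 72 h, 1 was called higher and 2 lower (3.53% against 1.50%), with a median of -0.03 against -0.002. The 8 genes called in at least 1 comparison follow by their roles, with adjusted p from limma over all genes tested.

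Among the 8 regulators of the kinase, Ppp2cb, a catalytic subunit of protein phosphatase 2A, was called at 12 h. It was read at 1118, 1102 and 1346 in untreated cells, 2813, 2615 and 1920 at 12 h, and 1814 and 1532 at 72 h. The 12 h libraries lay above all others, with a log2 difference of 1.03 ± 0.14 (adjusted p 0.00058). It stood just past the 2-fold minimum, and was 0.92 to 0.99 and not called without untreated replicate 1 or 2 or RA 12 h replicate 1 or 2. The most abundant gene of this group was Ppp1cb, a catalytic subunit of protein phosphatase 1 (3099 to 4072).

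Among calmodulin and its binding proteins, 11 were tested and those called were all lower. Pcp4l1, a relative of the calmodulin-binding protein Pcp4, was read at 51.8, 65.1 and 54.1 in untreated cells, 17.6, 15.9 and 27.9 at 12 h, and 29.4 and 35.6 at 72 h, and it fell by 1.47 ± 0.25 on the log2 scale at 12 h (adjusted p 0.00281). Gap43, a calmodulin-binding protein of growing nerve endings, was read at 70.5, 78.8 and 56.6 in untreated cells, 42.1, 45.5 and 40.8 at 12 h, and 23.6 and 22.8 at 72 h, a fall of 1.51 ± 0.22 (adjusted p 0.000453). These genes separated from untreated without overlap. Calml4, a calmodulin-like gene, was read at 99.9, 109 and 125 in untreated cells, 88.2, 101 and 78.4 at 12 h, and 26.9 and 38.4 at 72 h. It fell by 1.76 ± 0.21 from untreated to 72 h (adjusted p 8.5e-05) and by 1.44 ± 0.21 from 12 h to 72 h (adjusted p 0.00103). The most abundant gene of the group was Cald1, which encodes the actin- and calmodulin-binding caldesmon (9234 to 20918).

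Of the other calmodulin-dependent kinases, 11 were tested. Dapk1, a death-associated protein kinase, was read at 14.0, 9.0 and 17.2 in untreated cells, 39.5, 25.2 and 20.0 at 12 h, and 35.4 and 29.6 at 72 h. It rose by 1.25 ± 0.35 on the log2 scale at 72 h (adjusted p 0.0338), and this call was fragile. It was lost with a pseudocount of 10, without the level filter, with the replicate block, and without untreated replicate 1 or 2, RA 12 h replicate 2 or either library of 72 h, at differences of 0.87 to 1.38. The gene spans 161239 bases, and the 25th percentile background estimate exceeded its value in every untreated library. After that subtraction Dapk1 fell below the level filter, and 3 of the 4 list calls at 72 h were kept. With the 5th percentile all 4 were kept, that of Dapk1 included. Its relative Dapk2 was read at 14.9, 19.8 and 20.8 in untreated cells, 36.1, 43.5 and 32.0 at 12 h, and 12.8 and 11.5 at 72 h. The 12 h libraries lay above all others, with a log2 difference from untreated of 0.98 ± 0.25 (adjusted p 0.047) that missed the 2-fold minimum. From 12 h to 72 h it fell by 1.53 ± 0.28 (adjusted p 0.00609), and at 72 h it was not called against untreated cells (-0.56 ± 0.28). The call of Dapk2 from 12 h to 72 h was lost without RA 72 h replicate 2 (-1.46). Its gene spans 114020 bases, and the 25th percentile background estimate exceeded its value in both libraries of 72 h. After that subtraction Dapk2 fell just below the level filter, and 2 of the 3 list calls from 12 h to 72 h were kept. With the 5th percentile all 3 were kept. Camk1, which encodes a calmodulin-dependent kinase that acts as a single subunit, was the most abundant gene here (479 to 740).

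In the calcineurin and NFAT group, Rcan2, a regulator of the calmodulin-dependent phosphatase calcineurin, was read at 338, 340 and 348 in untreated cells, 235, 214 and 210 at 12 h, and 445 and 472 at 72 h. The 12 h libraries lay below and the 72 h libraries above the untreated ones, and the log2 difference from 12 h to 72 h was 1.06 ± 0.12 (adjusted p 0.000172). The most abundant gene was Ppp3r1, the calcineurin regulatory subunit (1145 to 1612). Among 28 channels, pumps and release genes, Slc8a1, a sodium/calcium exchanger, was read at 42.1, 51.4 and 61.4 in untreated cells, 76.5, 87.8 and 85.0 at 12 h, and 116 and 102 at 72 h. It rose by 1.08 ± 0.20 on the log2 scale at 72 h (adjusted p 0.00274), and it was not called without untreated replicate 1 (0.94), without RA 72 h replicate 1 (0.99) or with a pseudocount of 10 (0.96). Atp2a2, the calcium pump of the endoplasmic reticulum, was the most abundant (2172 to 2697).

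Of 14 transcription factors and deacetylases known as CaM kinase substrates or their partners, 0 were called by limma in any comparison. An unadjusted p below 0.05 was found for 3, 4 and 3 of them at 12 h, at 72 h and from 12 h to 72 h, against 16.3, 23.9 and 18.9% of all genes. The adjusted p alone was passed by 0 of them at 12 h, by 1 higher and 1 lower at 72 h, and by 1 higher from 12 h to 72 h. These missed the 2-fold minimum. Of all genes, 4.37, 11.5 and 5.84% passed the adjusted p. Cebpb, a transcription factor and the most abundant of the 14, was read at 2044, 2409 and 2122 in untreated cells, 1788, 1841 and 1697 at 12 h, and 3105 and 2994 at 72 h. It was 0.48 ± 0.11 higher at 72 h than in untreated cells (adjusted p 0.00975) and 0.78 ± 0.11 higher than at 12 h (adjusted p 0.000725). Hdac5, a histone deacetylase named after its values were seen, fell by 0.61 ± 0.12 on the log2 scale from untreated cells to 72 h (adjusted p 0.00544).

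**Figure D5:**
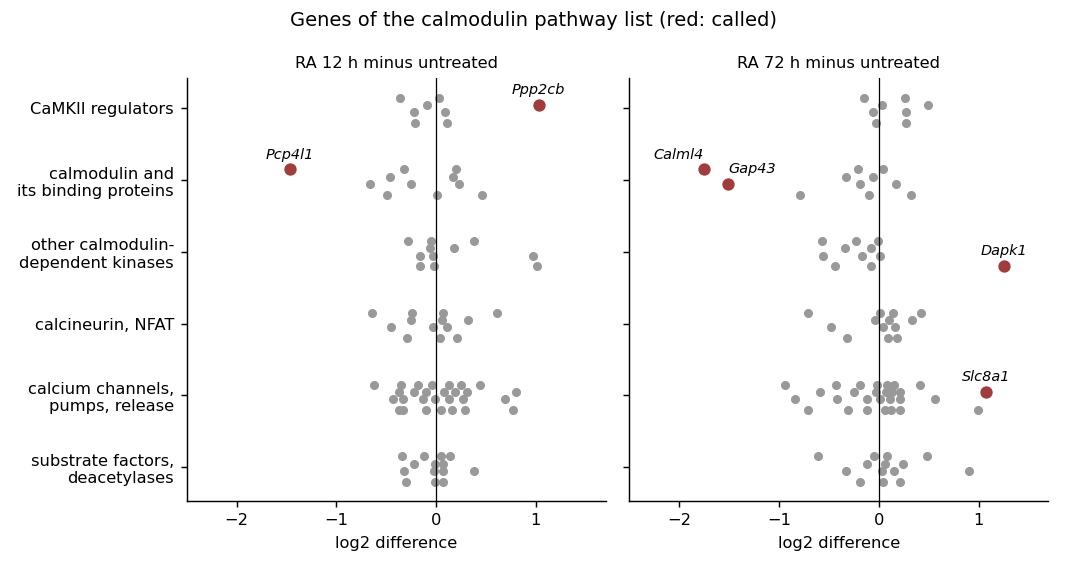
Log2 differences (x axes) of the 85 tested genes of the calmodulin pathway list, 1 point per gene, by group of the list (y axis), at 12 h (left) and 72 h (right) against untreated cells. Red points with names passed the adjusted p and the 2-fold minimum: Ppp2cb (1.03) and Pcp4l1 (-1.47) at 12 h, and Dapk1 (1.25), Slc8a1 (1.08), Gap43 (-1.51) and Calml4 (-1.76) at 72 h.

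The genes most like Camk2n1 and Camk2b across the 8 libraries were found by Pearson's r on log2(value + 1), among tested genes with a mean of at least 50. The libraries fall into 3 groups that share one treatment series, so any gene with the same order of group means scores high, and r is only a description. For Camk2n1 the closest were Scube3 (r = 0.991), Perp (0.987) and Pparg (0.987), with group means for Pparg, a nuclear receptor of fat cell formation, of 92.1, 231 and 359. For Camk2b they were Alcam (0.987), a cell adhesion molecule with group means of 138, 180 and 261, AC133601.3 (0.979) and Magi3 (0.968). Between Camk2n1 and Camk2b themselves r was 0.817.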

How the data were processed

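Gene expression was taken from 1 table in which the authors deposited normalised reads per Ensembl gene (22200 genes, decimal commas; 1 further line, with no gene, was dropped). The deposited values are a normalised score, not counts: sorted, all 8 columns were identical, so the authors had quantile normalised them and library depth is unknown. The labels describe DpnII tags and the study's methods fragmented RNA, reads aligned to mm9 with Tophat and counted with Cufflinks; which applies was not settled here. The authors' log2 ratio columns were not used. Groups followed the treatment and time labels. Their late time of 72 h is also given in the study's results, while its methods give another time. Values were fitted as log2(value + 1) for the 12673 genes with a mean of at least 10 in one limma model (version 3.58.1, R 4.3.3) of 3 groups with a variance trend, and two-sided p-values were Benjamini-Hochberg adjusted within each comparison. The step was tested on simulated data. The genes, lists and settings were chosen with earlier results of these data known. Named were the 4 genes, list genes called in a comparison or most abundant in their group, the 3 genes most correlated with each of the 4 whose group means differed at least 2-fold, and Cyp26b1, Rarb and Taf4a. Alternatives covered the pseudocount, level filter, fold minimum, replicate block, the shared axis, the background estimate and each library left out. Gene spans and coding sequences came from the GENCODE annotation of mm9.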

Additional observations from a re-analysis of the deposited data

How the results depend on the processing

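Camk2n1 was called at 12 h and 72 h in all 13 alternative fits. Camk2b at 72 h was called in 12 of 13, and its log2 difference was 2.28 after subtraction of the gene-body background. The fits reuse the same libraries and both genes were chosen with their values known. These counts therefore show only how the calls depend on the settings and are no support for a difference. Values within sides, chosen after seeing the data, moved most: Camk2b was 0.13 at 12 h and 0.85 at 72 h within side 2, Camk2n1 was 1.27 at 12 h within side 1, and Camk2g was -0.16 and -0.11 within side 2. Camk2b at 12 h was 0.51 without untreated replicate 2. The share of Camk2b among subunit reads was 0.400% in untreated cells and 0.839% at 12 h after the subtraction.

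Without a fold minimum 554, 1456 and 740 genes were called at 12 h, at 72 h and from 12 h to 72 h, of them 6, 13 and 8 on the pathway list. With a 3-fold minimum these were 59, 165 and 41, of them 0, 1 and 0 on the list, by limma. A filter at a mean of 50 left 297 genes at 72 h and 1 and 2 list genes at 12 h and 72 h, and a pseudocount of 10 left 2 list genes at 72 h. Leaving out 1 library gave 148 to 322 genes at 12 h (322 without untreated replicate 3), 1 to 6 list genes at 12 h (6 without untreated replicate 3) and 2 to 5 at 72 h (2 without RA 72 h replicate 1).

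The replicate numbers were not taken to pair the libraries: deviations from the group means of same-numbered libraries correlated at -0.11, -0.19 and -0.47 between untreated and RA 12 h, at -0.19 and 0.42 between untreated and RA 72 h, and at 0.25 and -0.18 between RA 12 h and RA 72 h. With the replicate block 174, 430 and 172 genes were called, the log2 difference of Camk2b at 72 h was 1.84 and that of Camk2n1 2.13, and of the named calls that of Dapk1 was lost. Depth was lost in the normalization, so no detection limit can be given, and the 2 libraries of 72 h limit its precision.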
